A study of Mus musculus with 38 samples.

Results

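The genes of lymphocytes were followed through primary tumours of 4T1, an established cell line from a mammary adenocarcinoma of the mouse. The 9 genes were fixed by name as 3 genes of B cells (Ighm, Cd79a and Ms4a1), 4 of T cells (Cd3e, Cd4, Cd8a and Trbc2) and 2 of cytotoxic cells (Nkg7 and Gzmb), out of 57126 genes in the tumour table. All 9 were found by symbol and all 9 passed the filter on low counts there. The series asks how insulin resistance acts on this cancer through exosomes, small vesicles released by adipocytes. The tumour table held 4 libraries of the control group, given as untreated, and 5 of the IR (insulin resistant) group. The labels name 4T1 for every library and give neither the host's strain, sex and age nor how the IR group was made in animals, how many animals there were or what tissue was cut out with a tumour. Replicates were labelled biological without naming separate animals, so each p-value reflects how these libraries spread, which may be technical in part. Reference values came from 3 further tables. They held 4T1 cultures left untreated or exposed for 72 h to vesicles from adipocytes that were insulin sensitive (IS) or insulin resistant (3 libraries each), cultures from a clonogenic assay on brain (5 control, 5 IS and 5 IR libraries) and 4T1 cells labelled as given miR-145a-3p (3 libraries) or a scrambled RNA (2 libraries).

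B cells recognise antigen through a membrane antibody that signals through Cd79a and its partner Cd79b, and plasma cells, which arise from them, secrete antibody. T cells carry a receptor of rearranged chains that signals through the CD3 proteins, with CD4 marking helper and CD8 marking killer cells. Killer T cells and natural killer (NK) cells release granules with perforin, which opens membranes, and granzymes, proteases that start cell death. Lymph nodes, where B and T cells gather, hold stromal and vessel cells with their own secreted proteins, such as the chemokine Ccl21a and the mucin Glycam1. In bulk tissue, fewer cells of a type and less RNA per cell cannot be told apart.

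The RefSeq promoter table (GRCm38.p6) held 5 of the 9 genes, and the 250 bases before the start site are shown for 3 of them, 1 for each kind of lymphocyte gene. Over the 9 tumour libraries Cd79a had a Pearson r of 0.936 with Cd3e and 0.323 with Gzmb. Over the 6 libraries other than control 2, IR 2 and IR 5 these were -0.458 and -0.749, so the first rests on those 3 libraries. The values over the 6 rest in turn on IR 4, the only one of them with Cd79a above 3 counts (21), and no relation is drawn from them. The 3 windows lie at chr7:24897247-24897496 on the plus strand, chr9:45009612-45009861 on the minus strand and chr14:56262335-56262584 on the minus strand, and are written 5′ to 3′ along the gene.
Cd79a: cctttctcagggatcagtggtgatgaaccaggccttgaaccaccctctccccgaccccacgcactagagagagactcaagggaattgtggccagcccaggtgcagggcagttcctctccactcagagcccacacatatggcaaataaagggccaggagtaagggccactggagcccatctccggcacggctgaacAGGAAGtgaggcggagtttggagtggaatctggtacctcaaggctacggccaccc
Cd3e: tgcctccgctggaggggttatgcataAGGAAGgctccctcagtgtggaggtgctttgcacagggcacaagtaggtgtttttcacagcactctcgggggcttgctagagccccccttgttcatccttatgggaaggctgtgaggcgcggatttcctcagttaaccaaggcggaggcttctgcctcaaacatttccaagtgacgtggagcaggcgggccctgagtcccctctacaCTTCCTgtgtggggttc
Gzmb: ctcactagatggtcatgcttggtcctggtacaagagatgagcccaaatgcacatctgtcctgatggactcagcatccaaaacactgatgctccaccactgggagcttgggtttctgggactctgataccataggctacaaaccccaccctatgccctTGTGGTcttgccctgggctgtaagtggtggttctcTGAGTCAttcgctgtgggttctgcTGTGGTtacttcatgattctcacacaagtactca
Capitals mark matches, on either strand, to letters recognised by factor families of blood cells: AGGAAG for ETS, TGTGGT for RUNX, TGANTCA for AP-1 and ATGCAAAT for octamer factors, the EBF motif, and TATAAA for the TATA box. Cd79a held 1 ETS match, from -55 to -50 relative to the start site, and Cd3e held 2, with 29.5% of 32851 promoters of this length holding at least 1. Gzmb held 2 RUNX matches (14% of promoters hold 1 or more) and 1 AP-1 match (6.75%), and no ETS match. No octamer, EBF or TATA match was in these 3 windows (1.6%, 0.779% and 12.4% of promoters). Only these exact letters were searched, so a site with other letters was not counted and may be present. E-box letters (CANNTG, not capitalised) were in all 3, as in 66.2% of promoters. The matches are a description of letters and overlap no other capitalised match.

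Total counts ran from 17392887 to 21909370 in the tumour libraries, so a gene at the limit of 3 counts stood at 0.14 to 0.179 CPM (counts per 1e+06 counts of tested genes, after scaling). Intervals and limits given here cover counting error only. Of the 9 tumour libraries, control 2, IR 2 and IR 5 stood apart in B and T cell genes, and each result below is given with these libraries shown. Control 2 and IR 2 were also the most alike of all 36 pairs of libraries, with a correlation across genes of 0.985 on the log2 CPM scale, against 0.978 for the next pair (control 1 and control 3). They carry the same replicate number and belong to different groups.

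**Figure D1:**
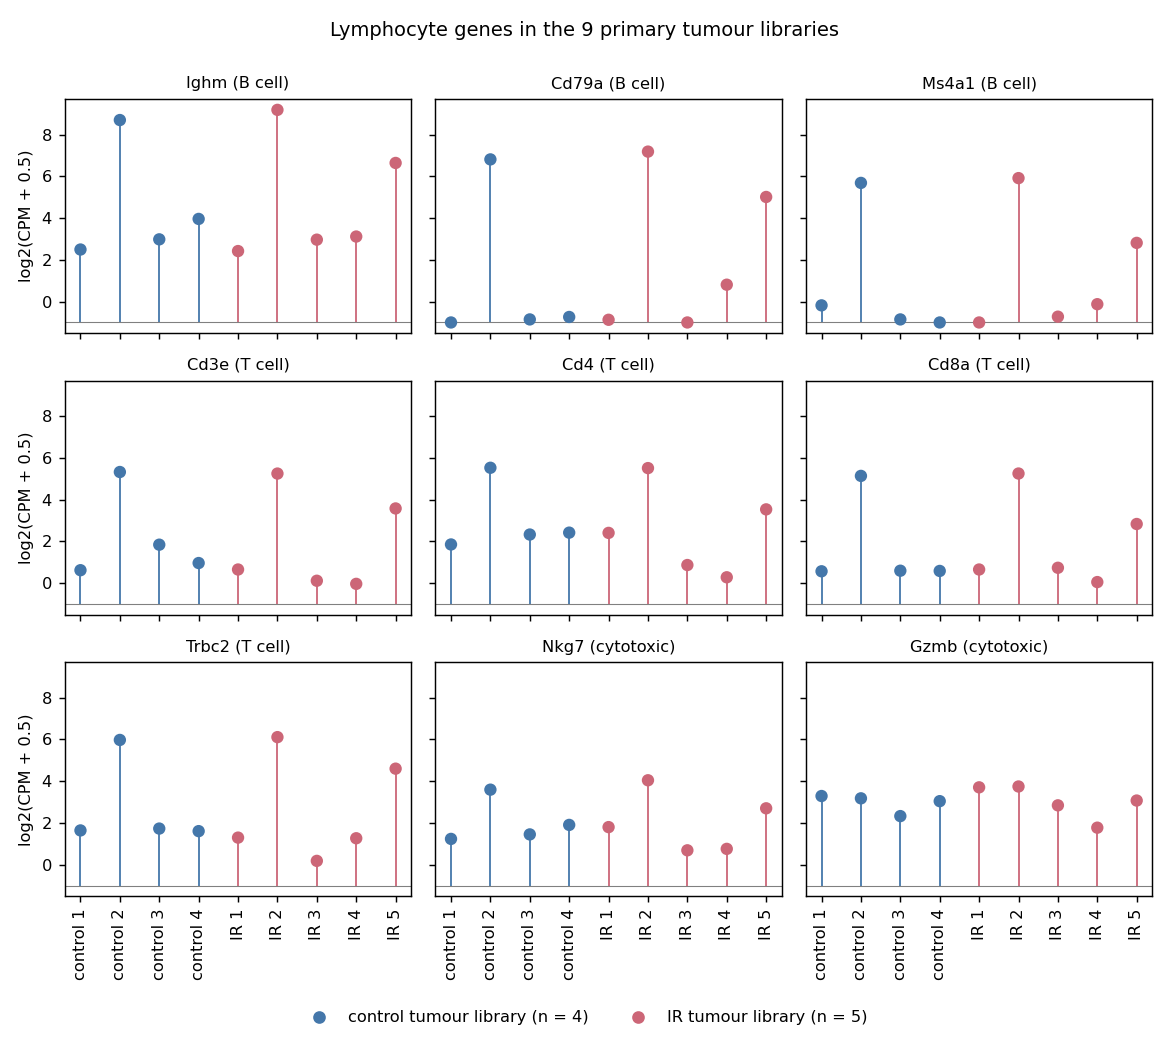
Level of each of the 9 genes (log2 of CPM + 0.5, vertical axis) in each tumour library (horizontal axis, blue for control and red for IR, 1 point per library, stems start at a CPM of 0). Control 2, IR 2 and IR 5 are the 3 highest libraries in every panel except Gzmb, whose 9 points lie between 2.92 and 12.9 CPM.

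Cd79a (ENSMUSG00000003379), the signalling chain of the B cell receptor, was nearly all or nothing. It had 2258 counts in control 2, against 0, 1 and 2 counts in controls 1, 3 and 4. In the IR group it had 2679 counts in IR 2, 613 in IR 5, 21 in IR 4, 1 in IR 1 and 0 in IR 3. In CPM these were 112 in control 2, 145 in IR 2, 31.7 in IR 5 and 1.25 in IR 4, and the other 5 libraries were at or under the limit of 3 counts, so both groups held libraries with and libraries without the transcript.

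Ms4a1 (ENSMUSG00000024673), the B cell surface protein CD20, had 1029 counts in control 2 and 1106 in IR 2, and stood at 6.52 CPM in IR 5. It had 7 counts in control 1 and in IR 4, 2 in IR 3, 1 in control 3, and 0 in control 4 and IR 1. The highest control and the highest IR library were thus alike at 50.9 and 59.8 CPM.

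Ighm (ENSMUSG00000076617), the heavy chain of membrane and secreted IgM, was the only one of these 3 B cell genes well above the limit in all 9 libraries. In the control group it stood at 5.13, 414, 7.40 and 15.1 CPM in libraries 1 to 4. In the IR group it stood at 4.85, 580.3, 7.31, 8.17 and 99.2 CPM in libraries 1 to 5. Control 1 and IR 3 therefore held 94 and 138 counts of Ighm with 0 counts of Cd79a.

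In the list of 16 further B cell genes, chosen with earlier results of these data known, the summed level was 687 CPM in control 2, 908 in IR 2 and 171 in IR 5, and 27 to 42.9 CPM in the other 6 libraries. Much of the level in those 6 was Cd72, an inhibitory surface protein, at 18.9 to 30.8 CPM. Cd79b, the partner of Cd79a, was at 79.4 CPM in control 2, 107 in IR 2 and 23.6 in IR 5, and at no more than 1.22 CPM elsewhere. Ighd, the IgD heavy chain that marks B cells before they switch class, was at 113, 159 and 26 CPM in the same libraries and at no more than 0.28 CPM elsewhere.

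The 13 genes of plasma cells and antibody chains spread most widely. Their sum was 2900 CPM in control 2, 3740 in IR 2 and 210 in IR 5, against 1.73 to 28.7 CPM in the other 6 libraries. Igkc, the kappa light chain, was at 1110, 1450 and 110 CPM in the 3 libraries, Ighg1, an IgG heavy chain, at 746, 1100 and 34.7 CPM, and Jchain, which joins IgM or IgA units, at 327, 366 and 22.5 CPM. Among the 8 heavy chain constant genes counted, Ighm made up 21.8% of the counts in control 2 and 23.2% in IR 2, where Ighg1 made up 39.4% and 44%. In IR 5 the order was the other way, with 55.5% Ighm and 19.4% Ighg1. These chains are near copies of each other, and how reads were split among them rests on the authors' estimation.

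**Figure D2:**
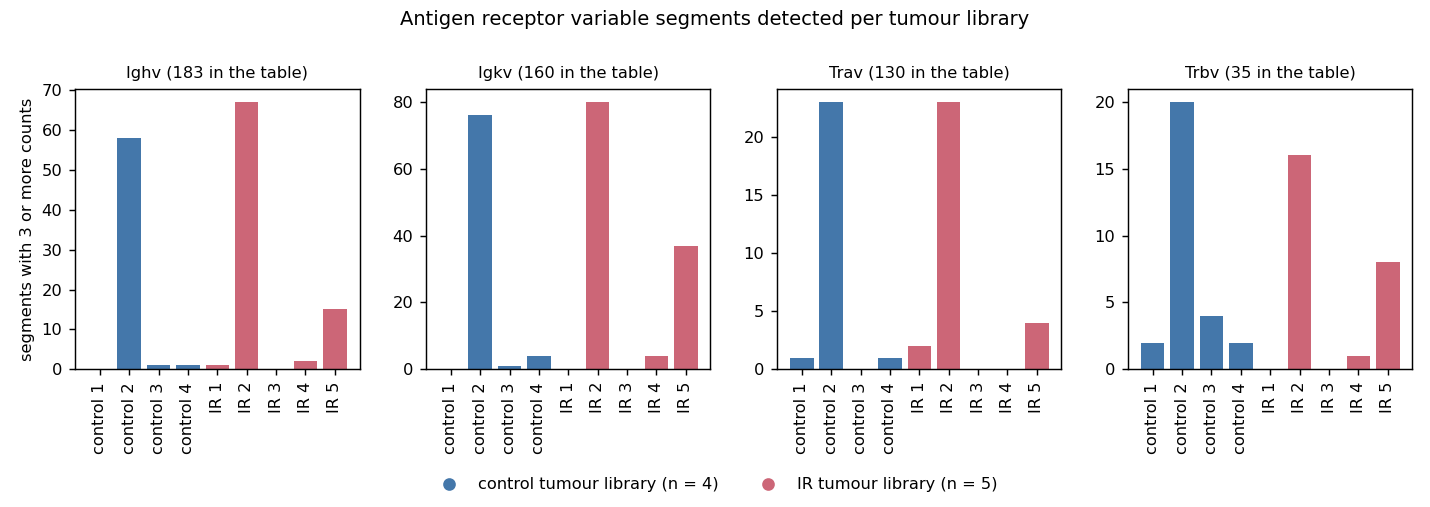
Number of variable segments with 3 or more counts (vertical axis from 0) per tumour library (horizontal axis, blue for control and red for IR) for antibody heavy (Ighv) and kappa (Igkv) chains and T cell receptor alpha (Trav) and beta (Trbv) chains. The tallest bars are those of control 2 and IR 2, with 58 and 67 Ighv segments, followed by IR 5 with 15.

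Variable segments, the parts of the receptor genes that each lymphocyte joins differently, were examined after the values of the 9 genes had been seen. Control 2 had 1660 counts over 183 Ighv segments, with 58 of them at 3 or more counts. IR 2 had 3627 counts with 67 segments, IR 5 had 114 counts with 15, and the other 6 libraries had 0 to 13 counts with 0 to 2. The leading segment differed between libraries, with 13.1% of the Ighv counts in control 2 (Ighv1-37), 31.5% in IR 2 (Ighv1-54) and 14.9% in IR 5 (Ighv1-9). The top 5 segments held 36.2%, 55.4% and 50% of the counts in these libraries. More Ighv segments reached 3 counts where the total of Ighv counts was higher. How reads were split among segments rests on the authors' estimation. For kappa chains 76 of 160 Igkv segments reached 3 counts in control 2, 80 in IR 2 and 37 in IR 5, and 0 to 4 in the other 6. T cell receptor beta segments reached 3 counts for 20 of 35 in control 2, 16 in IR 2, 8 in IR 5 and 0 to 4 in the other 6, with leading shares of 12%, 12.4% and 22% in the first 3.

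The T cell genes were high in the same 3 libraries but did not fall to 0 elsewhere. Cd3e (ENSMUSG00000032093), a signalling chain of the T cell receptor complex, had 19, 799, 58 and 29 counts in controls 1 to 4. It had 23, 694, 11, 8 and 221 counts in IR 1 to 5. That is 1.04 to 39.5 CPM in the control and 0.477 to 37.5 CPM in the IR group, with the groups overlapping almost wholly.

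Cd8a (ENSMUSG00000053977), a chain of the CD8 coreceptor of killer T cells, followed with 18, 701, 19 and 20 counts in controls 1 to 4, the last an estimate. In IR 1 to 5 it had 23, 695, 22, 9 and 128 counts. Apart from control 2, IR 2 and IR 5 it lay within 0.536 to 1.17 CPM.

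Cd4 (ENSMUSG00000023274), the coreceptor of helper T cells, which some mouse myeloid cells also carry, kept a higher floor. It stood at 3.11, 45.6, 4.52 and 4.85 CPM in controls 1 to 4 and at 4.80, 45.1, 1.33, 0.715 and 11.1 CPM in IR 1 to 5. Control 2 and IR 2 thus differed by little, and IR 3 and IR 4 were the lowest of the 9.

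Trbc2 (ENSMUSG00000076498), a constant region of the T cell receptor beta chain, was at 2.62, 62.4, 2.82 and 2.55 CPM in controls 1 to 4. In IR 1 to 5 it was at 1.96, 68.6, 0.636, 1.91 and 23.8 CPM. Its close copy Trbc1 was at 33 CPM in control 2, 38.2 in IR 2, 17 in IR 5 and 0.795 to 3.60 CPM elsewhere. Counts of both were fractional, since reads were shared between the copies, and their split is uncertain.

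The 29 further T cell genes summed to 708 CPM in control 2, 813 in IR 2, 213 in IR 5 and 60.4 to 86.3 CPM in the other 6 libraries. Lck, the kinase that starts receptor signalling, was at 72.2, 88.1 and 21 CPM in the first 3 and at 2.91 to 9.25 CPM in the others. Ccr7, which guides cells into lymph nodes, was at 49.9 CPM in control 2 and 62.6 in IR 2, while IR 5 with 11.5 CPM lay within the 2.62 to 14.6 CPM of the rest. Tcf7, a transcription factor of resting T cells, was at 55.6 and 68.9 CPM in control 2 and IR 2 and at 16.1 CPM in IR 5, with 13.5 CPM in IR 4 and 13.2 in IR 3.

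The 2 cytotoxic genes differed from each other. Nkg7 (ENSMUSG00000004612), a protein of cytotoxic granules, had 34, 234, 42 and 65 counts in controls 1 to 4 and 64, 296, 21, 20 and 116 counts in IR 1 to 5. In CPM it was highest in IR 2 (16), control 2 (11.6) and IR 5 (6.004) and ran from 1.11 to 3.25 in the rest, so it had the B and T cell pattern with a smaller span.

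Gzmb (ENSMUSG00000015437), the granule protease granzyme B, was at 9.28, 8.56, 4.52 and 7.75 CPM in controls 1 to 4. It was at 12.6, 12.9, 6.68, 2.92 and 7.92 CPM in IR 1 to 5. Control 2 was not the highest control, IR 1 was close to IR 2, and IR 5 lay among the libraries with few B and T cell counts.

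The 23 further genes of cytotoxic and NK cells summed to 67.5 to 196 CPM in the control and 74.4 to 253 CPM in the IR group, with IR 2 (253), IR 1 (243) and control 1 (196) on top. The best expressed of them by CPM were the granzymes Gzmd, Gzmg and Gzmf, near copies whose reads may be split between them. Gzmd was at 45.6 CPM in IR 1, 33.2 in control 1 and 26.1 in IR 5, and at 11.3 CPM in control 2 and 10.4 in IR 2. Prf1, perforin, chosen after its values were seen, was at 17.1 CPM in IR 1, 14.3 in IR 2 and 10.6 in control 1, and at 3.25 to 8.41 CPM in the rest.

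**Figure D3:**
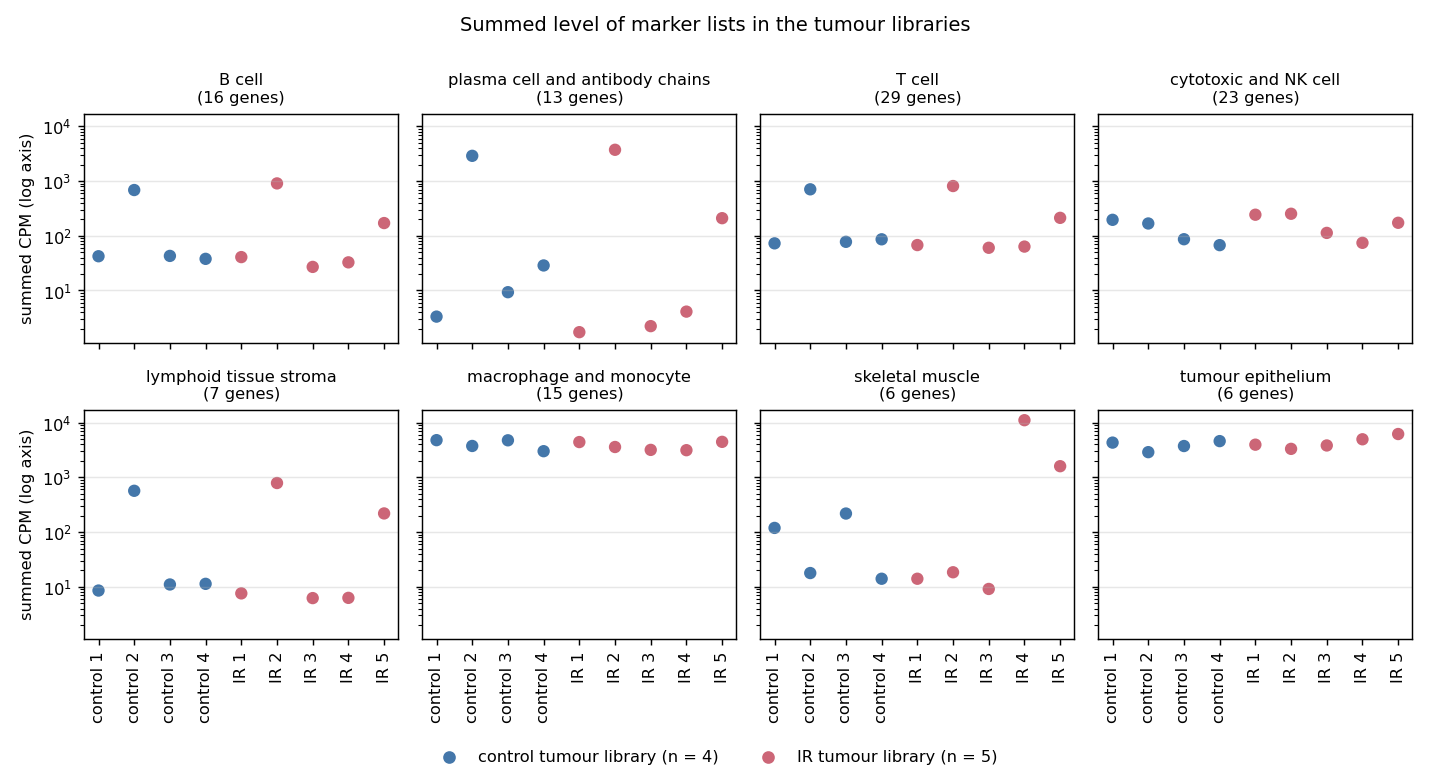
Summed CPM (vertical log axis) of 8 marker lists in each tumour library (horizontal axis, blue for control and red for IR, 1 point per library). The lists of B cells, plasma cells, T cells and lymphoid tissue (stroma genes with Lta and Ltb) have their highest points in control 2, IR 2 and IR 5, while macrophage genes lie between 3010 and 4790 CPM in all 9 libraries.

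Genes of lymphoid tissue were high in the same libraries as the B and T cell genes. The list holds 5 genes of stromal and vessel cells and 2, Lta and Ltb, that lymphocytes make. Its 7 genes summed to 568 CPM in control 2, 788 in IR 2 and 219 in IR 5, and to 6.20 to 11.3 CPM in the other 6 libraries, where most of the sum was Ltb. Glycam1, a mucin of the vessels through which lymphocytes enter lymph nodes, was at 213, 249 and 70.6 CPM in the 3 libraries and at 0 to 0.75 CPM elsewhere. Ccl21a, a chemokine that draws lymphocytes to the T cell areas of lymph nodes, was at 189, 295 and 73.3 CPM, and at 0 to 2.01 CPM elsewhere. Ltb, lymphotoxin beta, was at 97.8 CPM in control 2 and 43.6 in IR 5, higher still in IR 2, and at 3.34 to 9.80 CPM elsewhere. IR 1 had 0 counts in all 5 stromal and vessel genes, and 1 gene of the list was at 0 in each of the other 5 low libraries. What part such tissue had in the levels of the lymphocyte genes was not tested.

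Ptprc, the CD45 protein of all leukocytes, was at 229 CPM in control 2 and 287 in IR 2. It was at 63.8 CPM in IR 5, within the 53.5 to 86.5 CPM of the other 6 libraries. The 15 macrophage and monocyte genes summed to 3010 to 4790 CPM in the control and 3140 to 4460 in the IR group, and control 2 and IR 2 with 3750 and 3590 CPM were at neither end. Dendritic cell genes (9) summed to 103 CPM in control 2 and 125 in IR 2, and to 35.7 to 74.4 CPM in the rest, and neutrophil genes (12) to 35.3 to 185 CPM with control 2 highest. Tumour epithelium (6 genes) was lowest in control 2 and IR 2 with 2890 and 3320 CPM and highest in IR 5 with 6200 CPM.

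The remaining lists ordered the libraries in other ways. Skeletal muscle genes (6) were at 11100 CPM in IR 4 and 1600 in IR 5, 218 in control 3 and 119 in control 1, and 9.11 to 18.4 CPM in the other 5, among them control 2 and IR 2. Red cell genes (5) summed to 728 CPM in IR 5, 592 in IR 4 and 69.6 to 277 in the others. Adipocyte genes (5) ran from 162 to 402 CPM in the control and 21.5 to 688 in the IR group, with IR 5 and IR 2 (676) on top. Fibroblast genes (7) ran from 3520 to 6610 CPM in the control and 6130 to 12100 in the IR group, and endothelial genes (5) from 184 to 346 and 188 to 344 CPM. What part these tissues had in the comparison of groups was not tested.

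Among the genes most like Cd79a across the 9 tumour libraries, by Pearson r of log2(CPM + 0.5), were Pax5, a transcription factor that defines the B lineage, the light chain Iglc2, the chemokine Ccl19 and Pla2g2d, with r of 0.99 to 0.997. For Cd3e they included Gimap3, Rgs14, Cd2 and Ltb (0.988 to 0.992), and for Nkg7 they were Cd3d, Tbc1d10c, Ltb, Septin1 and Lrrc61 (0.978 to 0.984). These values rest on the libraries that stood apart, since the 9 fall into separate clusters for these genes, and no test was made. Over the other 6 libraries the same pairs had r of 0.676 to 0.996, which for Cd79a rests on the 21 counts of IR 4.

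The comparison of IR with control tumours asked whether the insulin resistant setting changed the tumours' transcripts. For none of the 9 lymphocyte genes was the difference larger than the spread between libraries, and for none did the libraries of the groups lie wholly apart, which was so for 2.41% of all tested genes. By edgeR's quasi-likelihood test with Benjamini and Hochberg adjustment, 0 of 9 were called at an adjusted p of 0.05, beside 0% of all 12962 genes tested. At an unadjusted p of 0.05, 0 of the 9 and 991 of the 12962 passed. DESeq2 called 124 of all genes and 0 of the 7 lymphocyte genes to which it gave a p, with none given for Ms4a1 and Cd8a.

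The size of the group difference was small for each gene and its error large. Cd79a was at 28 ± 55.8 CPM in the control (SD, n = 4) and 35.6 ± 62.6 CPM in the IR group (SD, n = 5), a log2 fold change of 0.34 ± 2.11 (SE, edgeR adjusted p = 0.998). Ighm, at 110 ± 202 and 140 ± 249 CPM, differed by 0.34 ± 1.63, and Ms4a1 by 0.056 ± 2.03. For the T cell genes the log2 fold change was -0.14 ± 1.41 for Cd3e, -0.21 ± 1.17 for Cd4, -0.0063 ± 1.43 for Cd8a and 0.14 ± 1.40 for Trbc2. Nkg7 differed by 0.20 ± 0.839. Gzmb, the least variable, was at 7.53 ± 2.10 CPM in the control and 8.60 ± 4.20 CPM in the IR group (log2 0.19 ± 0.405, edgeR adjusted p = 0.982). Without pairing, these errors leave room for changes of several fold in the B and T cell genes, so that the values do not show the groups to be alike.

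**Figure D4:**
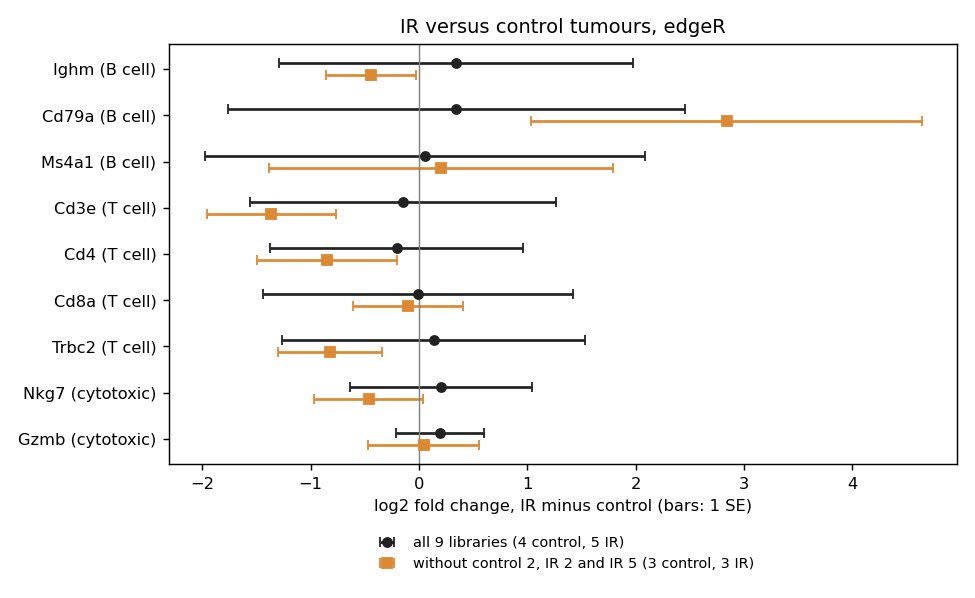
Log2 fold change of IR over control tumours (horizontal axis, bars of 1 SE from edgeR) for the 9 genes (vertical axis), with all 9 libraries (black circles) and without control 2, IR 2 and IR 5 (orange squares). With all libraries every estimate lies within 0.35 of 0, and without the 3 libraries Cd79a moves to 2.84 ± 1.80 and Cd3e to -1.36 ± 0.594. The 3 libraries were left out after their high levels of these genes were seen.

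Without control 2, IR 2 and IR 5, and with the same genes tested, again 0 of 9 were called by edgeR. These libraries were left out after their high levels of these same genes were seen. The values that remain are therefore a description and no test of the groups. Cd3e was then at a log2 fold change of -1.36 ± 0.594 (unadjusted p = 0.0508, adjusted p = 0.269 by edgeR). Cd4 (-0.85 ± 0.646), Trbc2 (-0.82 ± 0.479), Nkg7 (-0.46 ± 0.502) and Ighm (-0.44 ± 0.417) had the same sign, and none passed the threshold. The value for Cd79a then rested on the 21 counts of IR 4. The direction changed with single libraries: without control 2 alone Cd3e was at 2.47 and Ighm at 3.94 (unadjusted p = 0.0445, adjusted p = 0.688 by edgeR), and without IR 2 alone Cd3e was at -1.74 and Ighm at -1.89. Leaving out a library other than control 2, IR 2 and IR 5 moved these genes less but could also turn the sign, as for Cd3e without IR 1 (0.14) and Ighm without control 1 (-0.056), while leaving out IR 5 turned neither.

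With the replicate number as a block the errors were smaller, and 0 of 9 were called. This fit compares libraries of the same number and gives IR 5, which has no control partner by the titles, no weight. Of the controls only control 2 was closest to the IR library of its own number, so the fit assumes a pairing that is not shown. Ighm was then at a log2 fold change of -0.099 ± 0.208 (edgeR adjusted p = 0.825) and Cd8a at -0.050 ± 0.246 (edgeR adjusted p = 0.93). Cd3e was at -0.85 ± 0.42 (unadjusted p = 0.0796, adjusted p = 0.346 by edgeR). Of the others, Trbc2 (-0.55 ± 0.325) and Nkg7 (-0.26 ± 0.41) turned to the other sign, as Ighm did, and Cd79a stayed positive at 0.88 ± 0.484. A block by the number in the library name, which joins control 4 with IR 5, also called 0 of 9. Ighm was there at 0.79 ± 0.465, Cd3e at 0.21 ± 0.766, Trbc2 at 0.31 ± 0.757 and Nkg7 at 0.31 ± 0.357. The sign of these genes thus depended on which number was used, and neither pairing is shown.

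No gene of the wider lists was called by edgeR either, as 0 of all 12962 genes tested were. Of the further B cell genes 14 of 16 were tested, with a median log2 fold change of 0.32, of the antibody list 9 of 13 (0.27), of the T cell list 22 of 29 (0.035), of the cytotoxic list 12 of 23 (0.42) and of the lymphoid tissue list 5 of 7 (0.63), beside a median of 0.0065 over all genes tested. Without control 2, IR 2 and IR 5 the medians were -0.82 for T cells and 0.25 for cytotoxic cells, again with 0 called. Since these libraries were left out for their levels of lymphocyte genes, the medians are no test. The other 3 lists hold many genes at 0 counts in those 6 libraries (up to 8 of 13 for antibody chains), and no median is given for them there. All 12 tested cytotoxic genes had a positive log2 fold change, from 0.097 for Il2rb to 0.94 for Gzme, and 0 of them passed at an unadjusted p of 0.05. The 12 are not independent, since they were measured in the same libraries and include the near copies Gzmc, Gzmd, Gzme, Gzmf and Gzmg. The remaining lists also had 0 called genes, with medians of -0.033 for macrophages, -0.035 for neutrophils, -0.40 for dendritic cells, 0.40 for tumour epithelium, 0.63 for fibroblasts, 0.27 for endothelium, 4.87 for skeletal muscle, -0.11 for adipocytes and 1.43 for red cells, and Ptprc at 0.11. At an unadjusted p of 0.05 by edgeR, 4 of 7 fibroblast, 4 of 4 red cell, 3 of 6 epithelial and 3 of 6 muscle genes passed. So did 2 of 15 macrophage, 1 of 6 neutrophil, 1 of 5 dendritic and 1 of 5 endothelial genes, beside 991 of all 12962. In the adipocyte, B cell, antibody, T cell and lymphoid tissue lists 0 passed. Genes of 1 list are not independent.

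**Figure D5:**
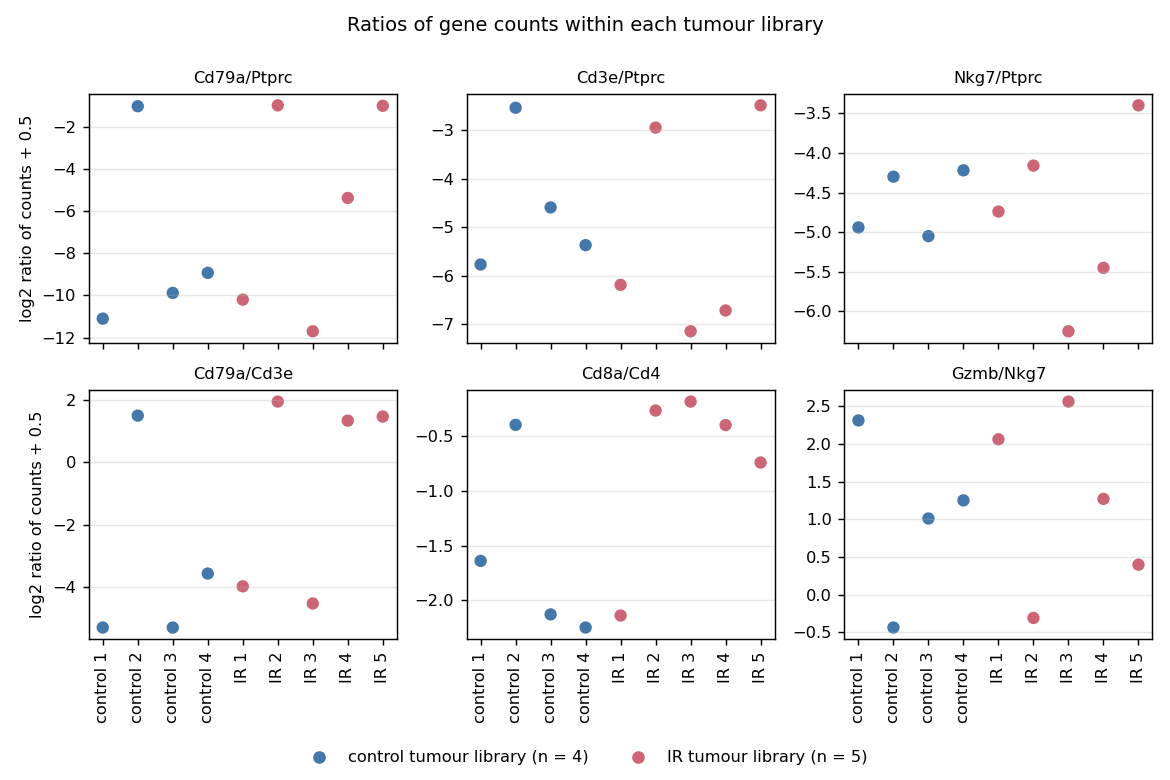
Log2 ratio of the counts of 2 genes within a library, with 0.5 added to each (vertical axes, scale differs between panels), for the 9 tumour libraries (horizontal axis, blue for control and red for IR). Cd79a over Ptprc is alike in control 2, IR 2 and IR 5 and lower in the others, while Gzmb over Nkg7 is lowest in those 3.

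Ratios of 2 genes within a library do not depend on scaling. Cd79a counted 0.489 of Ptprc in control 2 (95% exact interval 0.464 to 0.514), 0.504 in IR 2 (0.481 to 0.528) and 0.498 in IR 5 (0.451 to 0.549), so that the 3 intervals overlapped, although Ptprc itself was not raised in IR 5. In the others the ratio was at most 0.0234 (IR 4). Cd79a over Cd3e was 2.83 in control 2, 3.86 in IR 2 and 2.77 in IR 5, and 2.62 in IR 4 on 21 and 8 counts (interval 1.12 to 6.85), against at most 0.069 in the other 5. Cd8a over Cd4 was 0.761, 0.833 and 0.598 in the 3 libraries and 0.206 to 0.316 in controls 1, 3 and 4 and IR 1, with 0.88 in IR 3 and 0.75 in IR 4 on fewer counts. Gzmb over Nkg7 was below 1 in control 2 (0.739) and IR 2 (0.807), 1.32 in IR 5 and 2.02 to 6 in the others.

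None of the 6 ratios passed the test between IR and control tumours. The largest difference relative to its spread was Cd8a over Cd4, with a mean log2 ratio of -0.743 ± 0.809 in the IR (SD, n = 5) and -1.60 ± 0.849 in the control group (SD, n = 4; two-sided exact permutation p = 0.159, adjusted over the 6 ratios 0.841). Cd79a over Cd3e differed by 2.41 (exact permutation p = 0.286, adjusted 0.841) and Cd3e over Ptprc by -0.53 (exact permutation p = 0.69, adjusted 0.841). Cd79a over Ptprc, Nkg7 over Ptprc and Gzmb over Nkg7 differed by 1.88, -0.171 and 0.165 (exact permutation p = 0.579, 0.794 and 0.841). Cd79a had only 0 to 2 counts in controls 1, 3 and 4, IR 1 and IR 3. Its ratios there rest on the added 0.5 and the count of the other gene, so the differences of 2.41 and 1.88 are uncertain in size. The smallest p that 4 against 5 libraries allow is 0.00794.

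The other tables were normalised apart from the tumour table, so their levels are set beside it without a test. In the brain clonogenic cultures 105 of 135 values of the 9 genes were 0 and the highest was 14 counts (Ighm in IS 4, 1.49 CPM). None of the 9 passed the filter there. Ptprc was well above it, at 32.5 to 72 CPM in the control, 16.8 to 69.3 in the IS and 6.69 to 30.5 in the IR group, so these cultures held a leukocyte transcript with next to none of the lymphocyte ones. Without a filter 8 of the 9 could be tested in the brain table and 0 were called by edgeR in any of 3 comparisons, beside 5.63% of all genes for IR against control, 2.92% for IS against control and 1.27% for IR against IS (2.64%, 1.29% and 0.843% in the lower direction alone). At an unadjusted p of 0.05, 1 of the 8 passed in each, which was Gzmb against control on 7 counts in a single control library and Ighm between IR and IS on 14 counts in IS 4 and 1 count in an IR library. DESeq2 was run there only on the filtered genes, which held none of the 9.

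In cultured 4T1 cells with or without adipocyte exosomes 77 of 81 values were 0 and the highest was 3 counts (Cd79a in IS 3). In the miRNA experiment 38 of 45 values were 0. There Cd79a had 3 and 12 counts in the libraries labelled scrambled RNA and 0 to 1 in those labelled miR-145a-3p, and Cd3e had 3 and 4.85 (an estimate) against 0 to 1, with the other 7 genes at 0. The library names in that table go against these titles, so no direction is drawn from it. A count of 0 allows up to 0.352 CPM in the exosome cultures and 0.133 CPM in the miRNA experiment. Ighm and Gzmb, which had 94 or more and 49 or more counts in every tumour library, thus had 0 counts in each of these 14 culture libraries.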

How the data were processed

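The deposited tables hold expected counts per gene made by the authors, by RSEM for the exosome culture and brain libraries and by salmon for the tumour and miRNA libraries, as the labels name the tables. Trimmomatic, STAR, featureCounts and DESeq2 are among the tools in the submitters' processing notes, beside the builds GRCm38 and GRCm39. The build of a given table is not stated there, and coordinates are printed only for RefSeq promoters. Of the values, 84.4% in the tumour, 97.8% in the brain, 97.8% in the exosome culture and 85.6% in the miRNA table were whole (within 1e-06). The exosome culture counts came with 3 further columns that fit no sample, which were left out. Columns of the IR group in the brain and exosome culture tables are named like tumour libraries and were used as IR replicates without a number. The tumour library titled control 4 has another number in its library name.

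Counts were rounded. A gene was tested where 3 or more libraries had at least 3 CPM. The test was edgeR's quasi-likelihood test (version 4.0.16, R 4.3.3) after scaling by the trimmed mean of M values, with all groups of a table in the fit and p-values adjusted over all genes tested. SEs are the absolute log2 fold change divided by the root of the F statistic. DESeq2 1.42.0, other scalings and filters, left-out libraries and a replicate block were alternatives. Deviations of same-numbered tumour libraries of the 2 groups had correlations of 0.139, 0.76, 0.219 and 0.107 for numbers 1 to 4. Only control 2 was closest to the IR library of its own number. Controls 1 and 3 were closest to IR 4 and control 4 to IR 1, so the data do not show that the numbers pair the libraries. Between brain control and IS the correlations ran from -0.0662 to 0.104, and brain IR carried no numbers. Ratios were tested by exact permutation over libraries. The edgeR test was checked on simulated counts in which each gene varied on its own, unlike genes raised together in a few libraries. Brain and exosome culture genes were named by identifier through the tumour table. The 9 genes and the lists (further B cell, antibody, T cell, cytotoxic, lymphoid tissue, macrophage, neutrophil, dendritic, epithelial, fibroblast, endothelial, muscle, adipocyte and red cell genes) were chosen with earlier results of these data known. Named besides the 9 genes were the 3 tested genes with the highest mean CPM of each lymphocyte and lymphoid tissue list, since no list had a called gene, Ptprc, and genes among the 5 most like Cd79a, Cd3e and Nkg7, of which some are not reported here. Prf1, Trbc1, the isotypes, the segments and the genes of the closing section were chosen after their values were seen.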

Additional observations from a re-analysis of the deposited data

Results flagged for a closer look

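Within the 4 control tumours, control 2 lay farther from its nearest neighbour, relative to the range, than the 95% limit of Dixon's test for Ighm (414 CPM, others 5.13 to 15.1), Cd79a (112, others 0 to 0.1), Ms4a1 (50.9, others 0 to 0.382), Cd3e (39.5), Cd4 (45.6), Cd8a (34.7), Trbc2 (62.4) and Nkg7 (11.6). Within the 5 IR tumours IR 2 did so for Ighm (580.3 CPM, others 4.85 to 99.2), Cd79a (145), Ms4a1 (59.8), Cd4 (45.1) and Cd8a (37.6). Gzmb had no such library in either tumour group. Chance gives such a library in about 1 of 20 groups, and these genes were measured in the same libraries, so they are not independent.

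In the ratio of Cd8a to Cd4, IR 1 stood apart in the IR group at a log2 ratio of -2.14, with the other 4 at -0.739 to -0.181. In the brain cultures single libraries stood apart on few counts: Ighm in IS 4 (1.49 CPM), Cd3e and Trbc2 in the same IR library (0.405 CPM each), Cd4 in IS 5 (0.302 CPM) and Gzmb in control 1 (0.722 CPM), from 4 to 14 counts each. For all of these but Trbc2 the other libraries of the group were at 0. Any count at all would have stood apart there.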

How the results depend on the processing

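In the tumours 0 lymphocyte genes were called under each alternative run, with all 9 tested in most. Fewer were tested with filterByExpr (8), without control 2, IR 2 or IR 5 alone (5) and without several of these under a renewed filter (3), and DESeq2 gave a p for 7. In the brain none of the 9 passed a filter, so only the unfiltered test of 8 bears on them. Of all genes in the tumour comparison 0 were called, against 124 with DESeq2, 1 with the replicate block, 4 with a block by the number in the library name, and 0 to 1 when 1 library was left out. Directions were less stable. Without each library in turn the log2 fold change ran from -1.89 to 3.94 for Ighm, -0.070 to 0.66 for Cd79a, -0.36 to 0.37 for Ms4a1, -1.74 to 2.47 for Cd3e, -1.70 to 1.61 for Cd4, -0.38 to 0.30 for Cd8a, -0.23 to 0.45 for Trbc2, -0.75 to 1.16 for Nkg7 and -0.00027 to 0.41 for Gzmb. Cd79a, Ms4a1, Cd8a and Trbc2 fell under the filter without control 2, IR 2 or IR 5 and have no value there. The sign turned with the replicate block for Ighm (-0.099), Trbc2 (-0.55) and Nkg7 (-0.26), with the block by library name number for Cd3e (0.21), Cd4 (0.089) and Cd8a (0.77), with no filter for Cd8a (0.0042), without control 2 and IR 2 for Cd4 (0.12), and without control 2, IR 2 and IR 5 for Ighm (-0.44), Trbc2 (-0.82) and Nkg7 (-0.46). The last 2 settings were chosen after seeing the data. Apart from the left-out libraries, the cause was not tested. Ratios kept 0 of 6 past the threshold. Without each library they ran from -1.19 to 0.148 for Cd3e over Ptprc, -0.521 to 0.19 for Nkg7 over Ptprc, -0.324 to 0.589 for Gzmb over Nkg7, 0.667 to 4.11 for Cd79a over Ptprc, 1.70 to 3.96 for Cd79a over Cd3e and 0.644 to 1.26 for Cd8a over Cd4. With the replicate block the difference was 0.672 for Cd79a over Ptprc. The same-numbered pairs are too few for any ratio to pass in that setting, so it cannot bear on the calls. In the brain, the replicate block could be fitted for IS against control only, where it left 0 of the 9 tested, since the IR columns carry no numbers.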

Other observations

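Some antibody and granzyme genes ordered the libraries differently from Cd79a and Cd3e. Igha, the IgA heavy chain, was at 60.3 CPM in IR 2 and at 0.426 to 1.48 CPM in the other 8 tumour libraries, control 2 among them. Ighg3 made up 31.3% of the heavy chain constant counts in control 3, on 72 counts, and at most 4.82% in the other libraries, although its level was highest in IR 2 (52 CPM) and control 2 (24.5) and only 3.83 CPM in control 3. The granzymes Gzmc, Gzmd, Gzme, Gzmf and Gzmg, near copies of each other, had their 3 highest levels in control 1, IR 1 and IR 5. Gzmf was at 40.3, 41.4 and 19.9 CPM there and Gzmg at 39.1, 47.2 and 20 CPM, with IR 5 well below the other two. Gzmc was at 25.6, 33.8 and 22.5 CPM, and Gzme was highest in IR 5, at 17.1, 19.1 and 21.6 CPM.

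Among T cell genes Tigit, an inhibitory receptor also found on NK cells, was highest in control 4 at 18.9 CPM, with 3.17 to 9.24 CPM in the other 8 libraries, so it did not follow Cd3e. Lag3, another inhibitory receptor, was at 14.1 CPM in IR 5, 14 in IR 2, 12.8 in control 2 and 9.54 in IR 4. Siglech, a marker of plasmacytoid dendritic cells, was at 24.3 CPM in control 2 and 21.1 in IR 2 and at 0.417 to 4.55 CPM in the rest.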
